A study of Mus musculus with 35 samples.

Results

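Messenger RNA of 9 genes of the EGF (epidermal growth factor) family was followed across 8 groups of mouse skin wounds. The genes were 6 ligands (Areg, Ereg, Hbegf, Tgfa, Btc and Epgn) and 3 receptors (Egfr, Erbb2 and Erbb3), chosen by name out of 22830 gene symbols in the count tables, and all 9 passed the filter on low counts in every comparison. The cilengitide experiment had the most called members, and its comparisons called 30.9%, 13.1% and 8.58% of all genes tested, against 0.0% to 8.28% elsewhere. In that experiment, Erbb2, Erbb3 and Btc were lower in Col5a1CKO than in WT wounds (log2 fold changes of -3.24, -3.72 and -3.74) and higher again with cilengitide, while Ereg was lower in both Col5a1CKO groups.

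The study deleted Col5a1, which encodes a chain of type V collagen, in fibroblasts and asked how skin repair changed. Col5a1CKO mice carried a tamoxifen-inducible Cre driven by a Col1a2 enhancer (Col1a2CreERT) and homozygous floxed Col5a1. Their WT controls were Cre-negative littermates with the same floxed alleles, and the methods state that both received tamoxifen and a large full-thickness wound of the back. The mice were adult males and females. Punch biopsies from the middle of the wound were sequenced from 7 WT and 7 Col5a1CKO wounds at day 14, from 3 Col5a1CKO wounds that received cultured WT dermal fibroblasts at day 14, and from 3 WT and 3 Col5a1CKO wounds at day 19. Another set held 4 WT and 4 Col5a1CKO wounds given vehicle, labelled day 14, and 4 Col5a1CKO wounds given cilengitide, an inhibitor of alpha v integrins, whose own labels give no day although the protocol for that set names harvest at 14 days. The study describes its replicates as separate biological replicates and its day 14 wounds without fibroblasts as given vehicle, although their labels say only that they were wounded. The labels of the fibroblast treatment disagree: the titles place it on 3 Col5a1CKO wounds of day 14, as here, while the treatment field places it on the 3 Col5a1CKO wounds of day 19, so every value of those 2 groups rests on the titles.

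EGF family ligands are made as membrane-anchored precursors and are released by metalloproteases such as ADAM17. They bind EGFR or ERBB4, and the bound receptors pair with ERBB2, which has no ligand of its own, or with ERBB3, whose kinase is weak. In skin, the keratinocytes of the epidermis are both a main source of these ligands and a main site of EGFR, ERBB2 and ERBB3, and signalling through the MAP kinase cascade supports their migration and proliferation during wound closure.

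Counts were deposited without normalization. Totals over the genes kept were 15043531 to 35700337 reads per library for the wounds at day 14 and day 19, and 51211600 to 68266760 for the cilengitide experiment. Levels are given as TMM-scaled CPM, read counts relative to library size after edgeR's correction between libraries, or as RPKM, which also divides by transcript length, where genes are compared with each other. At day 14, Col5a1 lay between 347 and 2386 CPM in WT wounds and between 170.0 and 663 CPM after its deletion, and the ranges of WT and Col5a1CKO overlapped in all 3 settings. The wounds of day 14 and day 19 fell into sets by the balance of GC-rich and GC-poor genes. The lower set held 9 wounds of day 14 (WT replicates a to d, with a to e of Col5a1CKO), and the upper set all other libraries of that table. Split this way, Col5a1 at day 14 no longer overlapped in the lower set. No WT wound there was under 846 CPM, and no Col5a1CKO wound was over 663 CPM. In the upper set the genotypes still overlapped, as the lowest WT wound had 347 CPM and the highest Col5a1CKO wound 352 CPM. Among the day 14 wounds of the upper set, the 3 WT wounds had Y-linked RNA and the 2 Col5a1CKO wounds and 3 fibroblast-injected wounds had Xist, so in that set sex and group cannot be told apart. In the cilengitide experiment, Col5a1CKO vehicle replicate 2 had neither Xist (0.91 CPM) nor Y-linked RNA (0.0 CPM), and results that rest on this group are given with and without it. The other 3 Col5a1CKO vehicle wounds had Y-linked RNA. WT vehicle and cilengitide wounds each had 2 with Xist and 2 with Y-linked RNA, so sex was not balanced against the Col5a1CKO vehicle group. Skin identity varied by wound. Summed over 11 epidermal markers, none of which was at 0 in any library, WT wounds had 14682 to 161087 CPM, whereas Col5a1CKO wounds at day 14 had 51.4 to 63134 CPM and with vehicle 93.7 to 12769 CPM. In these bulk samples, fewer cells of a type and less RNA per cell cannot be told apart.

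Of the ligand genes, 4 are neighbours on chromosome 5. In build NCBI37/mm9, Epgn lay at 91456490 to 91464241, Ereg at 91503643 to 91522675 and Areg at 91568641 to 91577458 on the plus strand, followed by Btc at 91786287 to 91831939 on the minus strand. Tgfa lay on chromosome 6 (86145420 to 86225151, plus strand), Egfr and Erbb2 on chromosome 11 (16652206 to 16818161 and 98273784 to 98299030, plus strand), and Erbb3 on chromosome 10 (128004579 to 128026708, minus strand). Their transcripts differed in base composition. By the GC content of the transcript, Ereg stood at percentile 2.78, Btc at 4.62 and Epgn at 6.35 of the genes measured, whereas Erbb2 stood at percentile 86.2 and the other 5 members between 19.4 and 56.1. Of 2 Egfr rows in the wounds of day 14 and day 19, the longer transcript (5965 bp) held 74.3% of the counts and was used.

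Promoters of 6 members were found in RefSeq (build GRCm38.p6, 250 bases before to 50 after the start, written along the gene's strand). The promoters of Areg, Epgn and Btc are shown because these neighbouring ligands behaved unlike each other in the wounds, and that of Erbb2 because it had the smallest adjusted p of the 9 genes in the cilengitide experiment. Capitals mark matches on either strand. The letters searched were TATAAA for the TATA box and GGGCGG for the GC box. Those of transcription factors were TGANTCA for AP-1, TGACGTCA for the CRE, the element bound by CREB, and GGAATG for TEAD.
Areg, chr5:91139349-91139648, plus strand: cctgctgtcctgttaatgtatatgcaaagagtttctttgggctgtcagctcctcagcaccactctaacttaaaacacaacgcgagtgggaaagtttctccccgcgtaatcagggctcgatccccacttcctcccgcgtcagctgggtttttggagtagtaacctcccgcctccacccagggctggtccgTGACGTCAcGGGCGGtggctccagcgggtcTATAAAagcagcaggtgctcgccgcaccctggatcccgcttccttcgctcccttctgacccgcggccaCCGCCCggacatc
Epgn, chr5:91027267-91027566, plus strand: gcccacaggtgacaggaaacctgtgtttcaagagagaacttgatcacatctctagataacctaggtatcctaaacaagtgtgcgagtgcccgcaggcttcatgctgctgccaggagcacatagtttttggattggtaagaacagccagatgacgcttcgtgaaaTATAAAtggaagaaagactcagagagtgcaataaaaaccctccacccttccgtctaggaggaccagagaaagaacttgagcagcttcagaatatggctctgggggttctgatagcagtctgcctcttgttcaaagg
Btc, chr5:91402945-91403244, minus strand: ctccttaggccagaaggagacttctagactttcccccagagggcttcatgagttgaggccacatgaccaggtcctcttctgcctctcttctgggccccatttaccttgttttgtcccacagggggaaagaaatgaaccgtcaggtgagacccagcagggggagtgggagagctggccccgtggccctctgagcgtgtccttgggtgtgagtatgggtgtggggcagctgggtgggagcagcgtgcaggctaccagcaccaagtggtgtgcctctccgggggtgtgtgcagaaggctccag
Erbb2, chr11:98412234-98412533, plus strand: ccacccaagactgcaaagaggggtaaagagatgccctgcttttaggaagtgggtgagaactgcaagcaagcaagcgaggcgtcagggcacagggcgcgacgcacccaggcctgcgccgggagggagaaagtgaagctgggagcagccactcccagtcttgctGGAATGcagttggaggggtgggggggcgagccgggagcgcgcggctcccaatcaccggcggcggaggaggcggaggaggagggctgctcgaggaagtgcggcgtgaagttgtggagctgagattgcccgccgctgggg
The Areg window held the CRE letters 61 bases before the start, next to a GC box at 52 bases and a TATA box at 31 bases before it, and a further GC box after the start. The Epgn window held only a TATA box, 86 bases before the start, the Erbb2 window only the TEAD letters, and the Btc window none of the 5. Among 27025 promoters of the same length, 1.88% held the CRE letters, 14.2% a TATA box, 35.9% a GC box, 7.93% AP-1 and 14.6% TEAD letters. These are letter matches in a short window and were not tested against the counts.

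Which members were abundant depended on the group. Per length, the order in WT vehicle wounds was Erbb2 with a median of 39.4 RPKM (range 32.7 to 46.2), Erbb3 with 29.4 RPKM (24 to 34.8), Ereg with 22.3 RPKM (13.6 to 28.2), then Tgfa, Epgn, Hbegf, Btc, Egfr and Areg, the last with 4.24 RPKM (3.92 to 9.86). In Col5a1CKO vehicle wounds, Areg came first with 15.3 RPKM (2.53 to 34.3) and Erbb2 and Erbb3 had medians of 4.33 and 1.66 RPKM. With cilengitide, Epgn (45.6 RPKM, 14.7 to 67.6) and Hbegf (30.9 RPKM, 18.9 to 45.5) came first, ahead of Erbb2 with 22.2 RPKM. In WT vehicle and in cilengitide wounds the leading 3 genes overlapped in range with their neighbour in the order. At day 14 Ereg led in WT wounds, with 17.0 RPKM, and Egfr in Col5a1CKO wounds, with 10.9 RPKM. The WT order at day 14 differed by library set. In the lower set Ereg led with a median of 35.7 RPKM and Erbb2 had 3.89 RPKM. In the upper set Erbb2 led with 34.8 RPKM and Ereg had 15.8 RPKM. Btc had the lowest median in 7 of the 8 groups. RPKM in the cilengitide experiment used the transcript lengths of the other table.

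**Figure D1:**
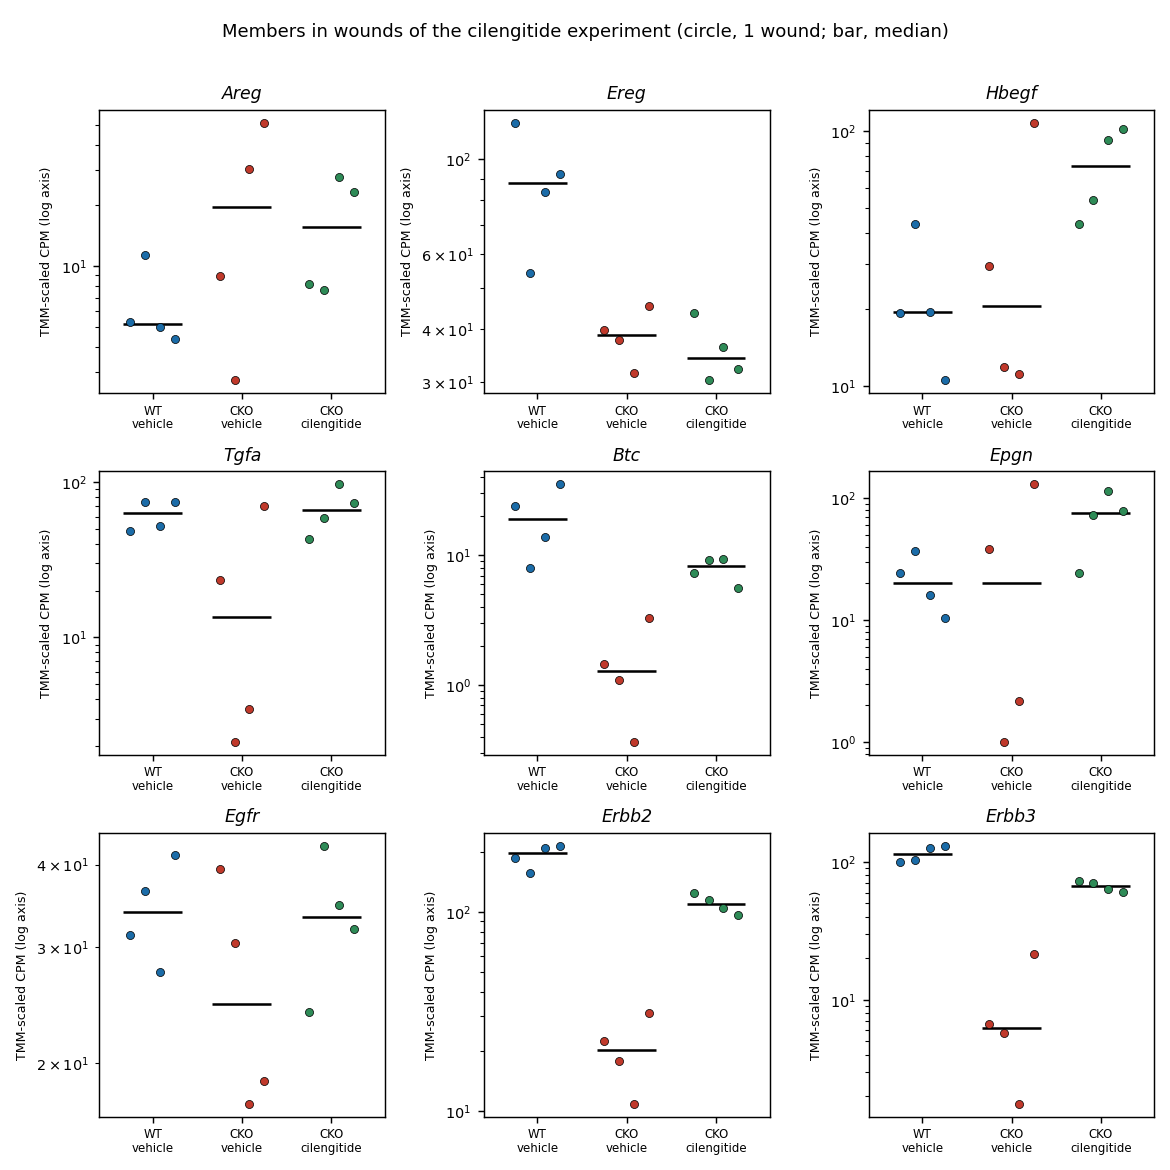
TMM-scaled CPM of the 9 members (log axis) in each wound of the cilengitide experiment, by group, with 1 circle per wound and a bar at the median. The 4 Col5a1CKO vehicle wounds lie below all WT wounds for Ereg, Btc, Erbb2 and Erbb3, and the cilengitide wounds lie between them for Erbb2 and Erbb3.

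In the cilengitide experiment, Col5a1CKO wounds with vehicle differed from WT wounds with vehicle in 4 of the 9 members. By the rule below, the ligands Btc and Ereg and the receptors Erbb2 and Erbb3 fell, and no member rose. A gene was called when its adjusted p (edgeR's quasi-likelihood test, Benjamini-Hochberg over all genes tested) was under 0.05 and its change at least 2-fold. By that rule 30.9% of 15434 genes were called, 13.4% lower and 17.5% higher, so changes were common in this comparison. The 4 members were also lower without overlap between the groups, as were 26.1% of genes, and none was higher without overlap (23.4% of genes).

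Btc encodes betacellulin, a ligand of both EGFR and ERBB4. It had 24.1, 8.04, 13.8 and 35.3 CPM in the WT vehicle wounds and 1.47, 1.10, 0.37 and 3.27 CPM in the Col5a1CKO vehicle wounds. The lowest WT wound was above the highest Col5a1CKO wound, and the change was -3.74 (standard error, SE, 0.73; adjusted p = 0.00509). Ereg, which encodes epiregulin, had 122, 54.0, 83.9 and 92.1 CPM in WT and 39.9, 37.8, 31.5 and 45.3 CPM in Col5a1CKO wounds. These groups did not overlap either, and the change was smaller, at a log2 change of -1.20 (SE 0.24, adjusted p = 0.00540).

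The other ligands spread widely between Col5a1CKO vehicle wounds. Tgfa encodes TGF-alpha, a keratinocyte ligand, and had 23.5, 2.13, 3.45 and 70.5 CPM there, against 48.8, 75.0, 52.5 and 74.6 CPM in WT wounds. Replicate 4 reached the WT range and the other 3 lay below it, and the change was -1.37 (SE 0.98, adjusted p = 0.276). Without replicate 4, Tgfa was called, at -2.69 (adjusted p = 0.0353). Epgn (epigen) had 38.2, 1.01, 2.18 and 129 CPM against 24.4, 36.8, 16.2 and 10.5 CPM in WT. Hbegf, whose product is the heparin-binding ligand shed by keratinocytes at wound margins, had 29.5, 11.8, 11.2 and 108 CPM against 19.3, 43.3, 19.5 and 10.5 CPM. For both, replicates 1 and 4 were the high wounds and replicates 2 and 3 the low ones, and the groups overlapped. Areg, which encodes amphiregulin, made by keratinocytes and by several immune cells, had 8.91, 2.73, 30.4 and 51.5 CPM against 5.32, 11.4, 4.99 and 4.38 CPM in WT. Its log2 fold change of 1.82 (SE 0.82) did not pass (adjusted p = 0.100), but it did without replicate 2, the library with neither Xist nor Y-linked RNA (2.19, adjusted p = 0.0253). DESeq2 called Areg higher with all wounds kept (1.82, adjusted p = 0.0352).

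Among the receptors, Erbb2 had 188, 157, 211 and 215 CPM in WT and 22.6, 17.9, 10.9 and 31.0 CPM in Col5a1CKO wounds with vehicle. Every Col5a1CKO wound was several-fold below every WT wound, and the change was -3.24 (SE 0.32, adjusted p = 0.000626). Erbb3 had 101, 103, 127 and 130.2 CPM in WT and 6.71, 5.74, 1.77 and 21.5 CPM in Col5a1CKO wounds. The groups were again apart, at a log2 change of -3.72 (SE 0.70, adjusted p = 0.00425). Egfr, the receptor that binds all 6 ligands, had 31.3, 36.5, 27.5 and 41.3 CPM in WT and 39.4, 30.4, 17.4 and 18.8 CPM in Col5a1CKO wounds. Those values overlapped, and the change was -0.38 (SE 0.29, adjusted p = 0.293). Without Col5a1CKO replicate 2, the 4 called members were called again, at -3.19 for Erbb2, -3.56 for Erbb3, -3.61 for Btc and -1.20 for Ereg.

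Epidermal markers moved with these members. Of the 11 markers, 7 were called lower and none higher in Col5a1CKO vehicle wounds, with a median log2 fold change of -3.65 against 0.02 over all genes, and their sum lay between 64514 and 102521 CPM in WT wounds, against 93.7 to 12769 CPM. For 7 of the 9 members, all but Areg and Egfr, the 2 Col5a1CKO vehicle wounds with most epidermal RNA (replicates 1 and 4) were also the 2 highest. With the mean of the epidermal markers as a covariate, none of the 9 members was called. Erbb2 stood at -2.23 (adjusted p = 0.0562), while Epgn and Tgfa were above 0, at 6.51 (adjusted p = 0.0513) and 2.81 (adjusted p = 0.0517). Only 38 of 16362 genes (0.232%) were called in that fit. On the log2 scale, the mean of the markers was 10.51 to 10.78 in WT vehicle and 2.613 to 7.995 in Col5a1CKO vehicle wounds, without overlap. Covariate and group can hardly be separated there, so the loss of calls is not a result about the members. Macrophage and monocyte markers, 7 genes, had a sum between 317 and 1073 CPM in WT wounds and between 3927 and 10389 CPM in Col5a1CKO wounds, and neutrophil markers, 6 genes, to 95.9 to 2211 and 1567 to 44164 CPM. The part of cell composition in the members' values was not tested.

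Cilengitide was compared with vehicle in Col5a1CKO wounds to ask what integrin inhibition changed. Erbb2, Erbb3 and Btc rose, and no member fell. By the same rule 13.1% of 15563 genes were called, 6.48% higher and 6.59% lower. The 3 members were also higher without overlap, as were 18.9% of genes, with 12.7% lower without overlap. Erbb2 had 125, 116, 106 and 96.9 CPM with cilengitide, all above the vehicle wounds and all below the WT wounds, with a log2 fold change over vehicle of 2.41 (SE 0.30, adjusted p = 0.00406). Erbb3 had 72.3, 70.4, 64.1 and 60.7 CPM, also between the other groups, at 2.89 (SE 0.67, adjusted p = 0.0210). Btc had 7.28, 9.15, 9.35 and 5.62 CPM, and rose by 2.33 (SE 0.58, adjusted p = 0.0256). Its call was lost without cilengitide replicate 1, 2 or 3, at adjusted p = 0.0519, 0.0530 and 0.0535, while the fold change was 2.32 to 2.44. Without Col5a1CKO vehicle replicate 2 the log2 fold changes were 2.35 for Erbb2, 2.73 for Erbb3 and 2.19 for Btc, and all 3 were called.

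Ereg, which was lower in Col5a1CKO than in WT wounds with vehicle, was not called with cilengitide. It had 43.6, 30.4, 36.3 and 32.3 CPM with cilengitide, 3 of them within the range of the vehicle wounds and 1 just below it, and its log2 fold change over vehicle was -0.13 (SE 0.16, adjusted p = 0.577). Hbegf had 43.2, 53.6, 92.2 and 102 CPM and Tgfa 42.8, 58.3, 96.7 and 73.2 CPM with cilengitide. In both, the cilengitide wounds were above vehicle replicates 1 to 3, while replicate 4 was above all of them for Hbegf (108 CPM) and among them for Tgfa (70.5 CPM), and neither was called (Hbegf 0.84, adjusted p = 0.435; Tgfa 1.43, adjusted p = 0.318). Without vehicle replicate 4 both were called, at 2.05 for Hbegf (adjusted p = 0.0192) and 2.80 for Tgfa (adjusted p = 0.0481). Epgn (24.2, 73.0, 114 and 78.2 CPM), Areg (8.20, 7.61, 27.7 and 23.2 CPM) and Egfr (23.9, 42.6, 34.8 and 32.0 CPM) overlapped with vehicle and were not called. The epidermal markers rose in the same comparison, 6 of 11 called higher with a sum of 35730 to 71708 CPM, and with them as a covariate none of the 9 members was called, where 15 of 16324 genes (0.0919%) were. Here too the mean of the markers did not overlap between the groups (9.89 to 10.4 with cilengitide). Covariate and group can hardly be separated in this fit either.

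Against WT wounds with vehicle, the Col5a1CKO wounds with cilengitide had lower Ereg and higher Hbegf and Epgn, in a comparison that called 8.58% of 15514 genes (5.15% higher and 3.43% lower). This comparison shares its samples with both of the others. Neutrophil marker sums were 3186 to 7266 CPM with cilengitide against 95.9 to 2211 CPM in WT wounds, and macrophage marker sums 1524 to 2440 CPM against 317 to 1073 CPM, neither overlapping, and their part in the members' values was not tested. Ereg was 30.4 to 43.6 CPM against 54.0 to 122 CPM, without overlap, at -1.30 (SE 0.24, adjusted p = 0.0195). Hbegf was 43.2 to 102 CPM against 10.5 to 43.3 CPM, an overlap at 1 wound, at 1.66 (SE 0.46, adjusted p = 0.0408), and Epgn was 24.2 to 114 CPM against 10.5 to 36.8 CPM at 1.72 (SE 0.52, adjusted p = 0.0499). Erbb2 and Erbb3 fell by 0.79 and 0.78 on the log2 scale (SE 0.13 and 0.12, adjusted p = 0.0193 for each), under the 2-fold rule, and, like Ereg, did not overlap with WT (15.6% of genes were lower and 14.4% higher without overlap). These calls were less stable than those above. Leaving out single wounds left 0 to 5 members called. Hbegf and Epgn were not called without cilengitide replicate 2, 3 or 4 or without WT replicate 1, 3 or 4 (adjusted p = 0.0701 to 0.121), and Ereg was not called without cilengitide replicate 2, 3 or 4 (0.0528 to 0.0556). Without WT replicate 2, Areg (1.79, adjusted p = 0.0470) and Btc (-1.62, adjusted p = 0.0210) were called as well. With the epidermal covariate no gene at all was called (0.0% of 16206). The mean of the markers again did not overlap, at 9.89 to 10.4 with cilengitide and 10.5 to 10.8 in WT wounds.

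**Figure D2:**
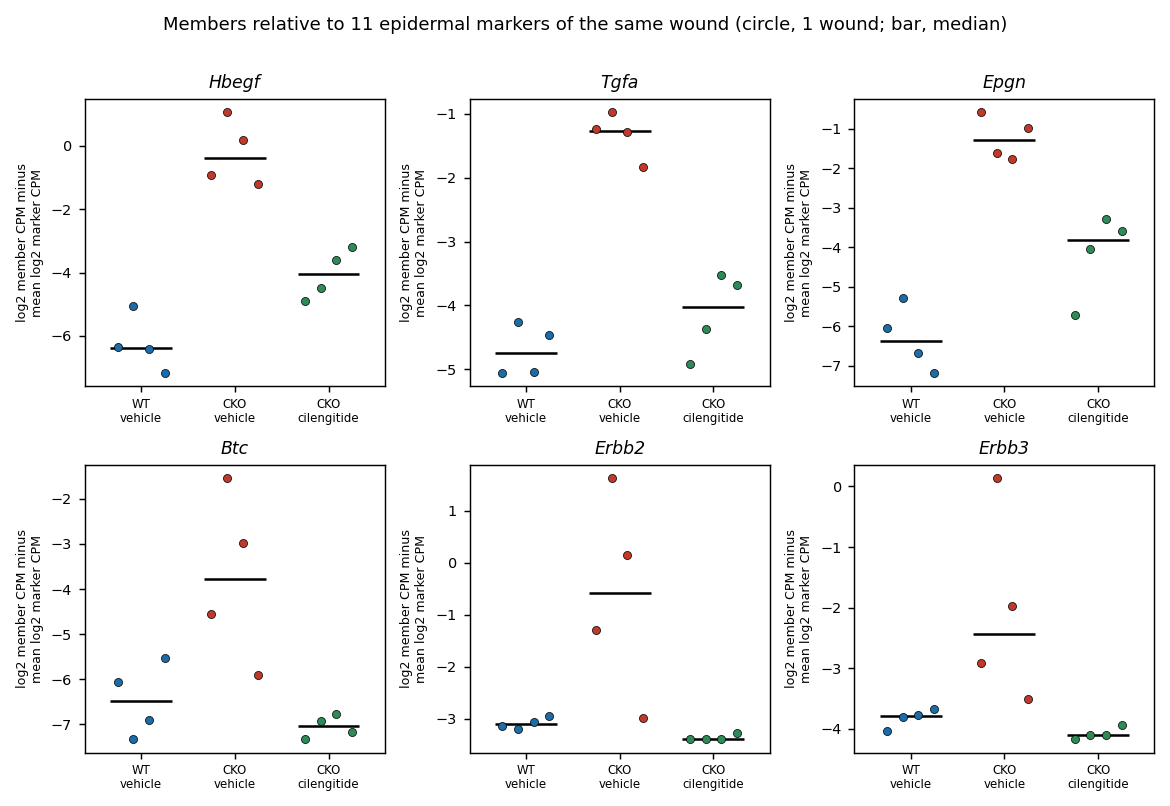
Level of 6 members relative to 11 epidermal markers in each wound of the cilengitide experiment, as log2(CPM + 1) of the member minus the mean log2(CPM + 1) of the markers, with 1 circle per wound and a bar at the median. Erbb2 lies between -3.40 and -2.95 in all WT vehicle and cilengitide wounds, with every cilengitide wound below every WT wound. Tgfa, Epgn and Hbegf lie higher in the Col5a1CKO vehicle wounds than in either other group.

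Set against the epidermal markers of the same wound, the receptors and several ligands had different ranges. On the scale of log2(CPM + 1) minus the markers' mean, Erbb2 was -3.21 to -2.95 in WT vehicle, -3.40 to -3.28 in cilengitide and -2.99 to 1.63 in Col5a1CKO vehicle wounds. Erbb3 was -4.03 to -3.67, -4.18 to -3.94 and -3.50 to 0.14. Between WT and cilengitide wounds Erbb3 thus overlapped on this scale, while Erbb2 was lower with cilengitide without overlap. Hbegf was -7.18 to -5.04 in WT vehicle, -4.91 to -3.20 in cilengitide and -1.22 to 1.07 in Col5a1CKO vehicle wounds, with no overlap between any of the groups, and Tgfa in Col5a1CKO vehicle wounds (-1.84 to -0.97) was above WT (-5.06 to -4.26). A gene of constant CPM would also rise on this scale where the markers fell, so these are descriptions and not changes of expression.

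**Figure D3:**
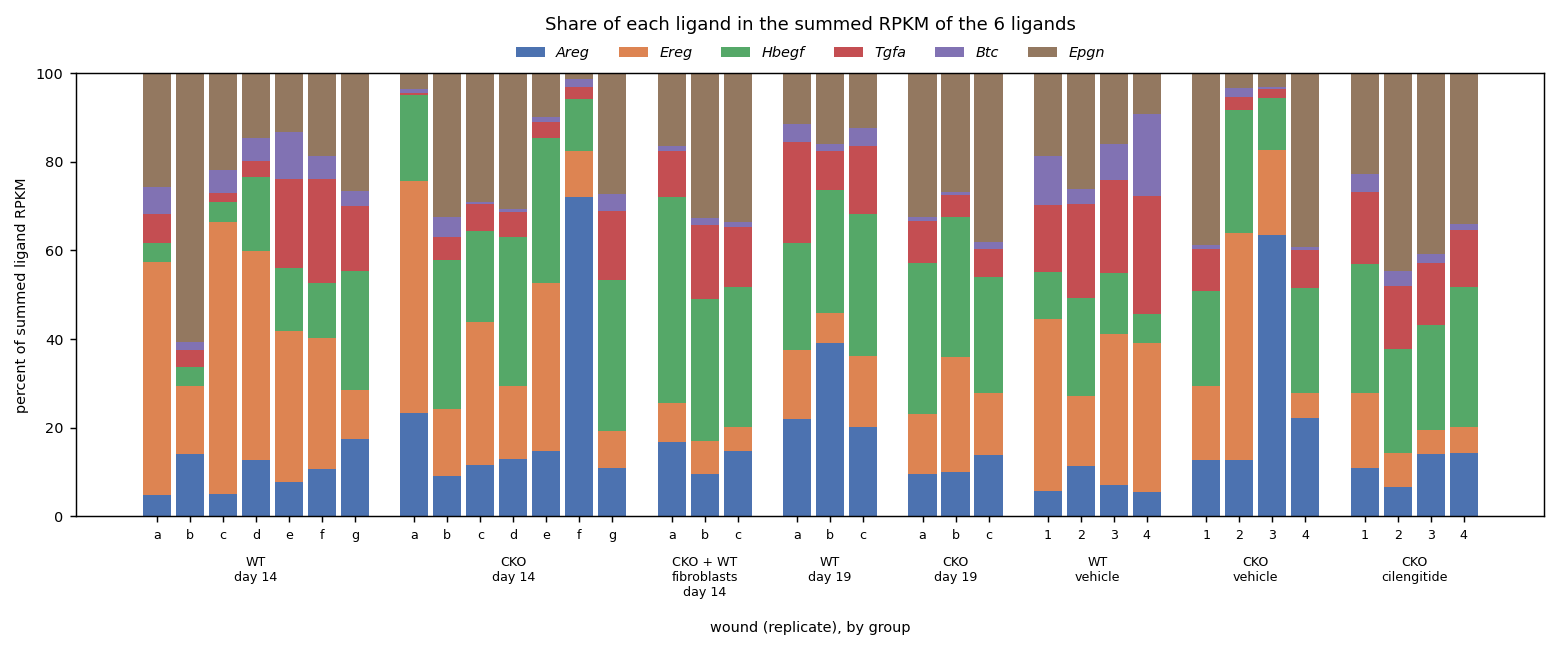
Share of each of the 6 ligands in their summed RPKM, in percent, for each wound, ordered by group and replicate. Ereg holds a median of 33.8% in WT vehicle wounds and 6.7% in cilengitide wounds, where Epgn and Hbegf hold 37.4% and 26.4%.

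The make-up of the ligands differed between the groups in its medians. As a share of the summed RPKM of the 6 ligands, Ereg had a median of 33.8% in WT vehicle wounds (range 15.8% to 38.6%), 17.9% in Col5a1CKO vehicle wounds (5.7% to 51.1%) and 6.7% with cilengitide (5.4% to 16.9%). Epgn had 17.4%, 21.0% and 37.4% in the same order, and Hbegf 12.3%, 22.5% and 26.4%. Areg was the leading ligand in a single Col5a1CKO vehicle wound, replicate 3, with 63.5%. The summed ligand RPKM was 60.4 to 86.2 in WT vehicle, 19.8 to 154.3 in Col5a1CKO vehicle and 64.8 to 165.4 in cilengitide wounds, so the groups overlapped in total. Shares of 1 sum move against each other by construction.

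Genes that act with the members were taken from lists of the pathway. Their counts stand against 17.5% of all genes called higher and 13.4% lower in Col5a1CKO vehicle against WT vehicle wounds. Among 10 genes of ligand shedding, 2 were called higher and 1 lower, near those shares (median log2 fold change 0.43 against 0.02 over all genes). Adam8, a metalloprotease of myeloid cells, rose by 4.66 (46.0 ± 17.2 CPM in WT and 1181 ± 993 in Col5a1CKO, SD, n = 4 each, adjusted p = 0.00364), Adam9 rose by 1.5, and Rhbdl2, a rhomboid protease, fell by 2.75. Of 17 feedback inhibitors of receptor and MAP kinase signalling, 8 were called higher and 2 lower (median 0.99). Dusp4, Spry4 and Dusp6 rose by 2.77, 2.45 and 2.43. Lrig1, which limits ERBB receptors at the membrane, fell by 1.48, and Lrig3 fell by 1.47. Of 13 MAP kinase response genes, 7 were called higher and 2 lower (median 1.91), Plaur (5.49), Ier3 (3.67) and Fos (3.43) the highest and Myc (-1.19) and Ccnd1 (-1.09) the lower ones. Many immune cells express Plaur, Ier3, Fos and Dusp genes, and the macrophage markers rose in the same comparison (7 of 7 called); their part in these lists was not tested. Of 17 signal transducers tested, Map2k1 rose by 1.41 and Gab1 fell by 1.06. Of 4 other family members tested, the neuregulin Nrg2 fell by 4.94, from 5.51 ± 3.11 to 0.18 ± 0.11 CPM (SD, n = 4 each).

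With cilengitide over vehicle, 5 of the 17 feedback inhibitors and 2 of the 13 response genes fell and none rose, where 6.59% of all genes were called lower and 6.48% higher (medians -0.67 and -1.26 against -0.06 over all genes). Dusp6, Errfi1, an inhibitor that binds the EGFR kinase, and Dusp4 fell by 1.89, 1.65 and 1.4, and Plaur and Fos by 2.99 and 2.01. Adam8 fell by 2.83 and Rhbdl2 rose by 1.95. Nrg2 rose by 2.91, to 1.37 ± 0.58 CPM (SD, n = 4). Macrophage and neutrophil markers fell as well, 5 of 7 and 2 of 6 called lower.

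**Figure D4:**
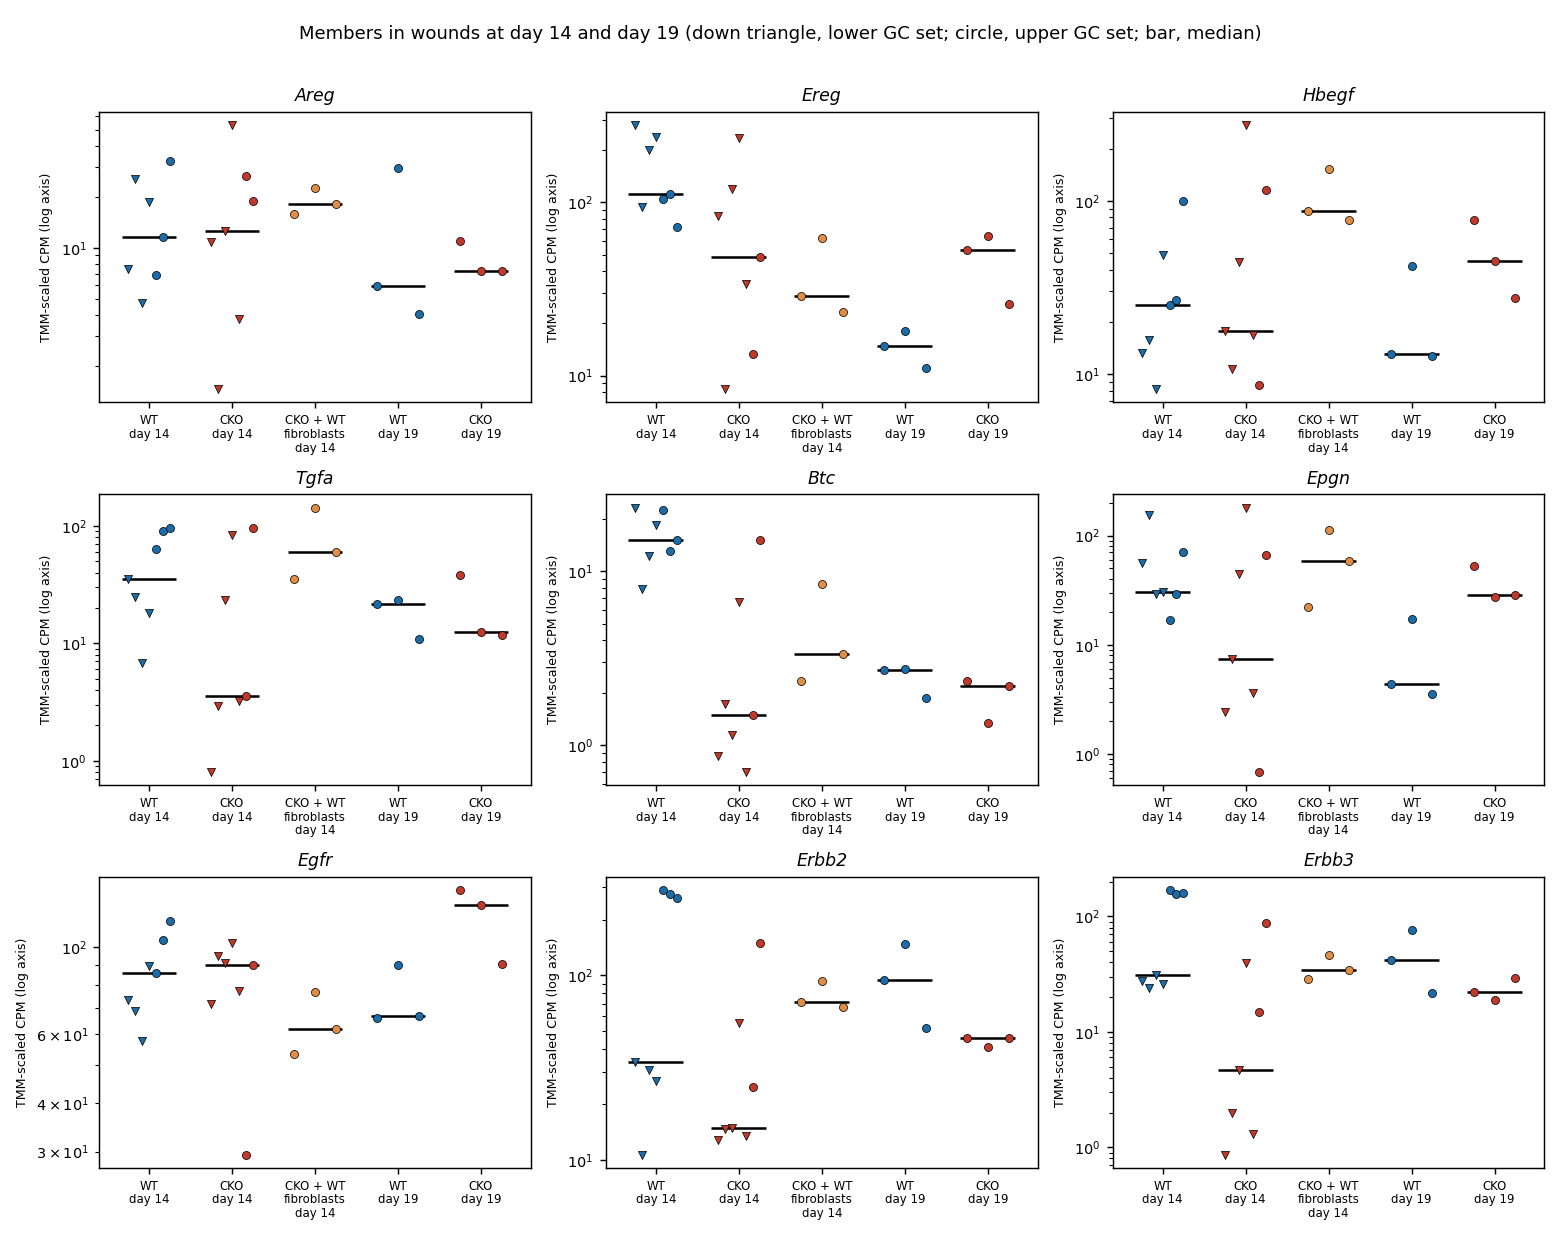
TMM-scaled CPM of the 9 members (log axis) in each wound at day 14 and day 19, by group, with triangles for the lower and circles for the upper library set and a bar at the median. Erbb2, Erbb3 and Tgfa are split by set within WT day 14, and 6 members have the same 2 Col5a1CKO day 14 wounds at the top.

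In the wounds of day 14 outside the cilengitide experiment, none of the 9 members was called between Col5a1CKO and WT wounds, in a comparison that called 8.28% of 14367 genes (5.57% higher and 2.71% lower). Btc came nearest, and at an unadjusted p under 0.05 it was the only member, where 13.2% of genes were lower and 14.2% higher. All but Areg and Hbegf were below 0 on the log2 scale, and the median of the 9 fold changes was -0.63 against -0.03 over all genes. No member was free of overlap between the groups, against 2.31% of genes higher and 1.72% lower without overlap.

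Btc was at its lowest 7.91, median 15.1 and highest 23.2 CPM in WT wounds, and 0.70, 1.49 and 15.1 CPM in Col5a1CKO wounds. Replicate g, at 15.1 CPM, was the only Col5a1CKO wound within the WT range, replicate d had 6.63 CPM, and the other 5 had at most 1.71 CPM. The log2 fold change was -2.0 (SE 0.67, adjusted p = 0.0707), and without replicate g it was -2.94 and called (adjusted p = 0.00613). Within the lower library set it was -2.82 (5 Col5a1CKO against 4 WT wounds, adjusted p = 0.0388, where 2.92% of genes were called lower) and within the upper set -0.93 (2 against 3, adjusted p = 0.498, with 9.22% of genes called). Ereg ranged from 72.5 to 281 CPM in WT (median 111) and from 8.35 to 237 CPM in Col5a1CKO wounds (median 48.6), at -1.03 (adjusted p = 0.295).

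The keratinocyte ligands Tgfa, Hbegf and Epgn had wide ranges. Tgfa was 6.77, 35.1 and 96.6 CPM (lowest, median, highest) in WT and 0.80, 3.57 and 95.4 CPM in Col5a1CKO wounds. Hbegf was 8.15, 25 and 99.4 CPM and 8.58, 17.7 and 275 CPM, and Epgn 16.8, 30.2 and 155 CPM and 0.68, 7.36 and 180.0 CPM. The groups overlapped in all of them, with log2 fold changes of -0.63, 1.07 and -0.35 (adjusted p = 0.707, 0.410 and 0.850). Areg, between 4.73 and 32.4 CPM in WT wounds and between 1.46 and 53.4 CPM in the others, was at 0.27 (adjusted p = 0.832). For 6 members (Btc, Epgn, Hbegf, Tgfa, Erbb2 and Erbb3), replicates d and g were the 2 highest Col5a1CKO wounds. Those were also the wounds with most epidermal marker RNA, 29881 and 63134 CPM against 51.4 to 2289 CPM in the other 5.

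Erbb2, Erbb3 and Tgfa were split by library set within WT. Tgfa had 6.77 to 35.1 CPM in the lower set and 63.2 to 96.6 CPM in the upper set. In WT wounds Erbb2 had 34.0, 10.7, 30.8 and 26.8 CPM in the lower set (replicates a to d) and 288, 274 and 262 CPM in the upper set, and Erbb3 had 24.1 to 30.9 and 157 to 168 CPM. The sets did not overlap, and epidermal marker RNA differed with them, at 32725 to 35939 CPM against 108526 to 161087 CPM. In Col5a1CKO wounds Erbb2 had 12.9, 14.6, 15.0, 54.8 and 13.4 CPM in the lower set and 24.9 and 149.6 CPM in the upper, and Erbb3 0.86, 1.97, 4.68, 39.2 and 1.30, and 14.9 and 88.0 CPM. Over all wounds the change was -1.65 for Erbb2 (SE 0.83, adjusted p = 0.213) and -1.92 for Erbb3 (SE 0.97, adjusted p = 0.218). Within the lower set Erbb2 was at -0.22 and Erbb3 at -1.51, and within the upper set at -1.56 and -1.55, none of them called. Without Col5a1CKO replicate g both were called, at -2.51 (adjusted p = 0.0445) and -2.97 (adjusted p = 0.0479). Egfr lay between 57.7 and 117 CPM in WT wounds and between 29.5 and 102 CPM in the others, at -0.09 (SE 0.24, adjusted p = 0.846). The lowest value was Col5a1CKO replicate f, and all other wounds of that group had 71.6 CPM or more.

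Of the pathway genes at day 14, Adam8 (2.54) and Adam9 (1.07), the feedback inhibitors Spry4 (1.74) and Dusp6 (1.41), and Plaur (2.12) were called higher in Col5a1CKO wounds, and none was called lower, out of 10 shedding genes, 17 feedback inhibitors, 13 response genes and 17 signal transducers tested, a share near that of all genes called in this comparison (5.57% higher and 2.71% lower). Dusp6 had 23.8 ± 9.33 CPM in WT and 62.8 ± 22.0 CPM in Col5a1CKO wounds (SD, n = 7 each, adjusted p = 0.0108). Macrophage markers were called higher in 4 of 7 cases, and no epidermal marker was called in either direction.

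**Figure D5:**
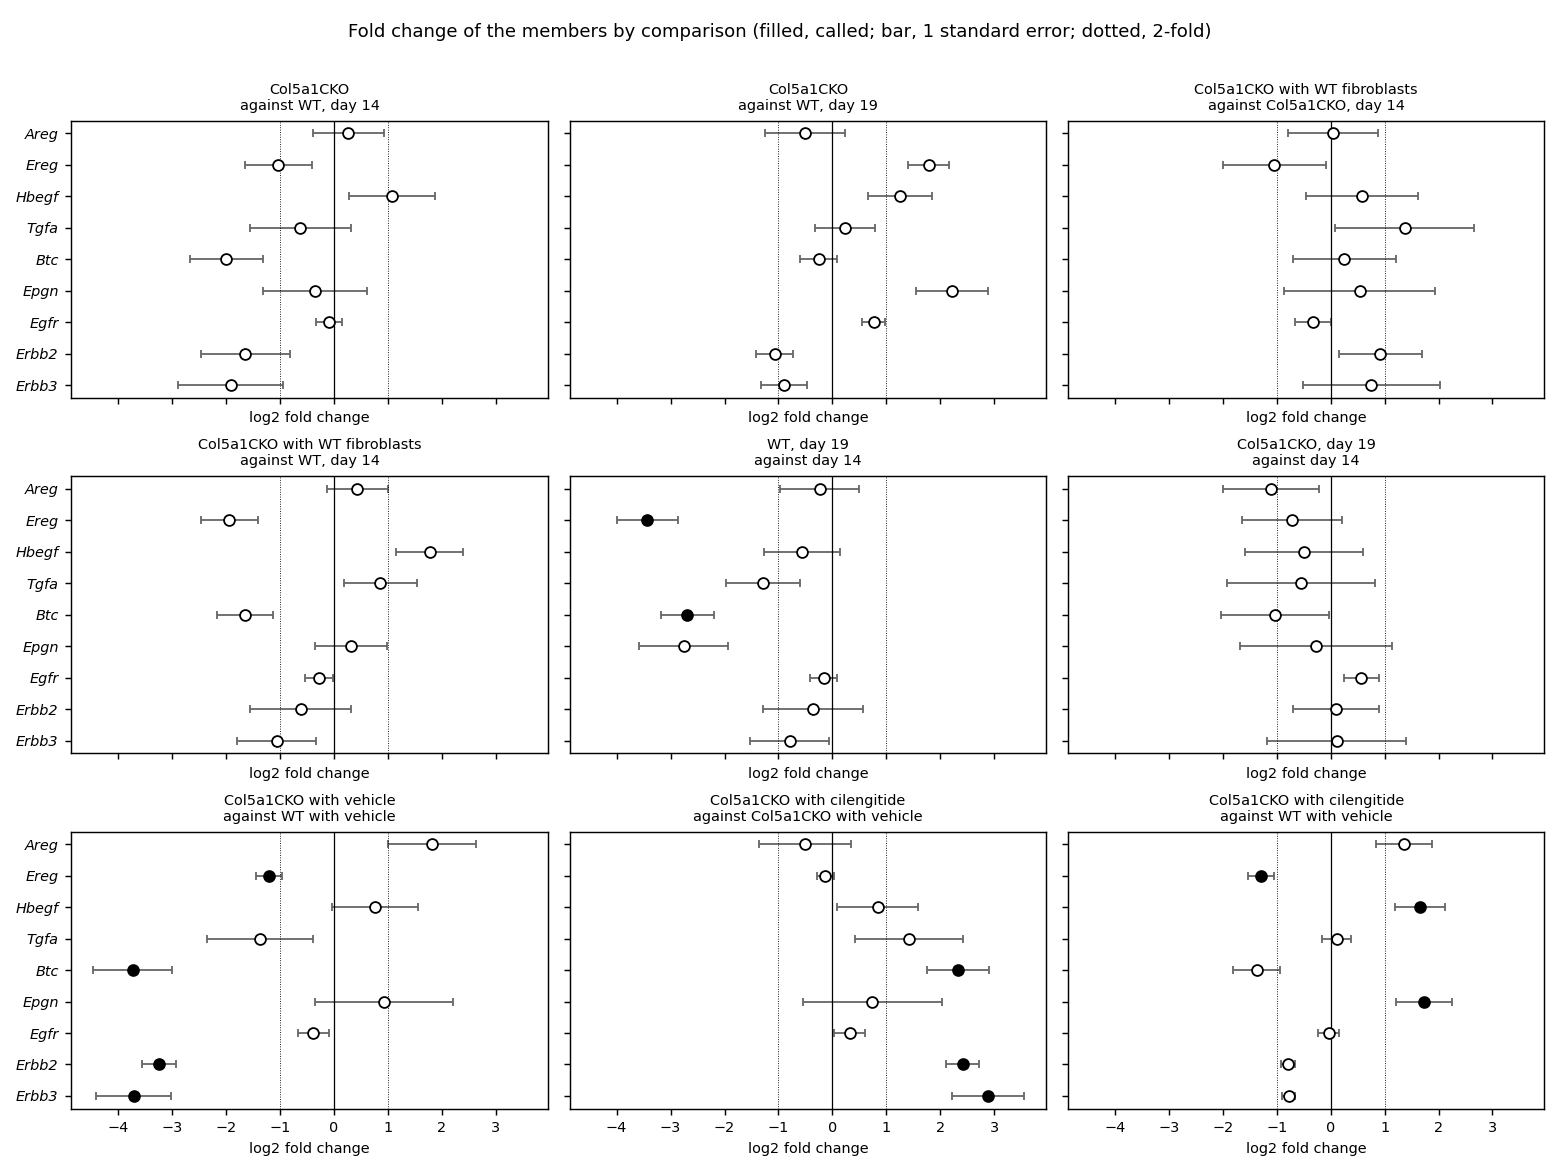
log2 fold change of the 9 members in the 9 comparisons, with bars of 1 standard error, filled points for called members and dotted lines at 2-fold. Calls fall in the 3 comparisons of the cilengitide experiment and in WT wounds between day 14 and day 19.

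Injection of WT fibroblasts was compared with Col5a1CKO wounds without fibroblasts to ask whether cells that make type V collagen change the wound. No member was called, as for all 15659 genes (0.0%), where DESeq2 called 19. At an unadjusted p under 0.05 no member passed either, among 2001 genes (1.28% higher and 11.5% lower). Hbegf had 86.8, 152 and 77.5 CPM and Tgfa 35.0, 143 and 59.8 CPM in these wounds. Only 1 Tgfa value lay above the range of the Col5a1CKO wounds without fibroblasts, and the Hbegf values lay within it, at log2 fold changes of 0.58 (SE 1.04) and 1.37 (SE 1.29). Erbb2 (71.8, 93.2 and 67.0 CPM) and Erbb3 (28.8, 46.5 and 34.4 CPM) lay above most of those wounds, and below replicate g (149.6 and 88.0 CPM). All 3 injected wounds were in the upper library set, where only 2 of the other Col5a1CKO wounds stood, and within it, with 0.0% of genes called, Erbb2 was at -0.10 and Erbb3 at -0.42. Against Col5a1CKO replicates a to c alone, all of the lower set, 4 members were called higher, Erbb2 (2.43), Erbb3 (3.84), Btc (1.90) and Hbegf (2.11), and 3 of them, all but Hbegf, with the replicate letter as a block. Small p-values were common among all genes in both fits. For Tgfa, an unadjusted edgeR p of 0.0563 became only 0.126 after adjustment without the block, and 0.0188 became 0.0730 with it. Counts of called members in these fits are therefore not a result about the members. Col5a1CKO replicates a to c had Y-linked RNA, and all 3 injected wounds had Xist. In these fits the library set, sex and the fibroblasts cannot be told apart.

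Compared with WT wounds at day 14, the injected wounds had no called member either, with 5.84% of 15316 genes called (3.77% higher and 2.06% lower). At an unadjusted p under 0.05, Hbegf was higher and Ereg and Btc lower, as were 11.2% of genes in each direction. Ereg had 28.9, 61.9 and 23.3 CPM, below the lowest WT wound (72.5 CPM), at -1.94 (SE 0.53, adjusted p = 0.0545), where 10.1% of genes were lower and 10% higher without overlap. Btc, with 2.35, 8.45 and 3.36 CPM, was at -1.65 (adjusted p = 0.0911) and Hbegf at 1.78 (adjusted p = 0.123). Without WT replicate g, Ereg (-2.10) and Hbegf (2.31) were called. Within the upper set, 3 against 3 wounds, 4 members were called lower, where 11.2% of genes were: Erbb2 (-1.68, adjusted p = 0.000422), Erbb3 (-1.99, adjusted p = 0.000420), Btc (-1.70, adjusted p = 0.0259) and Ereg (-1.20, adjusted p = 0.0373). In that set all 3 WT wounds had Y-linked RNA and all 3 injected wounds Xist, so sex and group cannot be told apart there. Epidermal marker sums were 13180 to 31799 CPM in the injected wounds and 108526 to 161087 CPM in those WT wounds, without overlap. The direction of Erbb2 turned with the wounds compared. Against WT replicates a to c alone, all of the lower set, it was higher by 1.56 (adjusted p = 0.0335), or 1.71 with the replicate letter as a block, and with the epidermal markers as a covariate over all 7 WT wounds it was at 1.61 (adjusted p = 0.0314).

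At day 19, none of the 9 members was called between Col5a1CKO and WT wounds, in a comparison that called 3 of 15135 genes (0.0198%), all higher. At an unadjusted p under 0.05, Ereg, Epgn and Egfr were higher and Erbb2 lower, against 11.8% and 12.3% of genes, 3652 in all. Ereg had 14.8, 18.1 and 11.1 CPM in WT and 53.2, 63.8 and 25.9 CPM in Col5a1CKO wounds, at 1.78 (SE 0.38, adjusted p = 0.114). Epgn had 4.39, 17.3 and 3.54 CPM in WT and 52.6, 27.3 and 28.7 CPM in Col5a1CKO wounds, at 2.22 (SE 0.66, adjusted p = 0.146). Egfr had 66.0, 90.0 and 66.5 CPM and 139.7, 128 and 90.5 CPM, at 0.76 (SE 0.22, adjusted p = 0.141). In all 3 every Col5a1CKO wound was above every WT wound, as for 16.4% of all genes tested. Erbb2 went the other way without overlap, at 93.9, 148 and 51.6 CPM in WT and 45.5, 40.7 and 45.5 CPM in Col5a1CKO wounds (-1.07, adjusted p = 0.157; 18.4% of genes lower without overlap). DESeq2 called Ereg, Epgn and Erbb2 here, with 9.23% of genes, and edgeR called Erbb2 without WT replicate c. All 3 Col5a1CKO wounds had Xist and 1 of the 3 WT wounds Y-linked RNA. Skeletal muscle markers were higher in the Col5a1CKO wounds, 6 of 6 above 0 with a median log2 fold change of 2.96, and hair follicle markers lower, at a sum of 25.1 to 31.3 CPM against 335 to 5853 CPM in WT. Epidermal marker sums were 7028 to 21739 CPM against 14682 to 26905 CPM. No marker of these 3 lists was called, and their part in the members' values was not tested. A test of whether the genotype difference itself changed between day 14 and day 19 called no gene of 15954 at an adjusted p under 0.05 (0.0%), where 939 were at an unadjusted p under 0.05 (2.81% higher and 3.08% lower), Ereg alone of the members, and DESeq2 called 24 higher and 12 lower. Ereg stood at 2.77 (SE 1.04, adjusted p = 0.723).

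Between day 14 and day 19, Ereg and Btc were called lower in WT wounds. Ereg went from 72.5 to 281 CPM at day 14 to 14.8, 18.1 and 11.1 CPM at day 19, at -3.43 (SE 0.56, adjusted p = 0.00661), and Btc from 7.91 to 23.2 CPM to 2.69, 2.73 and 1.87 CPM, at -2.69 (SE 0.49, adjusted p = 0.0106). Neither overlapped between the days, as for 11.8% of genes in the lower and 7.55% in the higher direction. These were the only called members, where 5.74% of 15180 genes were called, 4.25% lower and 1.5% higher, and both calls were lost without WT day 19 replicate a or c (adjusted p = 0.0551 to 0.0835). All 9 members were below 0 on the log2 scale. Epgn was at -2.76 (SE 0.82) and not called (adjusted p = 0.0710). It was called with DESeq2 (adjusted p = 0.00388), with the epidermal markers as a covariate (0.0232) and with the replicate letter as a block (0.00566). Within the upper library set, 3 against 3 wounds, Ereg (-2.59) and Btc (-2.67) were joined by Tgfa (-2.04, adjusted p = 0.00823), Erbb2 (-1.38, adjusted p = 0.0263) and Erbb3 (-1.68, adjusted p = 0.0243), where 10.1% of genes were called lower. Erbb2 turned here too, to 1.92 with the epidermal markers as a covariate (adjusted p = 0.00794) and to 1.90 against WT replicates a to c of day 14 alone, all of the lower set (adjusted p = 0.0419). Epidermal marker sums in the upper set were 108526 to 161087 CPM at day 14 and 14682 to 26905 CPM at day 19. In Col5a1CKO wounds no member was called between the days, with 5.72% of 15327 genes called (1.87% higher and 3.85% lower) and no member at an unadjusted p under 0.05 (9.62% and 17.4% of genes), and the largest change was Areg at -1.11 (adjusted p = 0.469).

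Across libraries, members differed in which genes they tracked. By the lower of the Pearson correlations of log2(CPM + 1) over the 23 wounds of day 14 and day 19 and over the 12 wounds of the cilengitide experiment, among 13788 genes, Erbb2 was most like Ddr1 (0.977 and 0.998), a collagen-binding receptor kinase of epithelia, and Erbb3 most like Eps8l2 (0.986 and 0.982) and Klf5 (0.976 and 0.984). Btc was closest to Nebl (0.957 and 0.951) and Tmprss11f (0.959 and 0.942), Tgfa to Fam167a (0.950 and 0.960) and Lamb3 (0.932 and 0.942), and Epgn to Defb14 (0.919 and 0.926) and the desmoglein Dsg3 (0.886 and 0.914). Hbegf was closest to Il24 (0.842 and 0.884) and Sprr2f (0.836 and 0.930), both known from stressed keratinocytes. The closest genes to Ereg (Atxn3, 0.801 and 0.818), Egfr (Spna2, 0.813 and 0.760) and Areg (Id1, 0.728 and 0.954) were less alike. Among the members, Erbb2 and Erbb3 went together most (0.88 and 0.99), followed by Tgfa with Erbb3 (0.80 and 0.84), while Areg and Egfr had the lowest values (-0.03 and -0.52). All these points share library depth, base composition and the amount of epidermal RNA, and the correlations are descriptions.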

How the data were processed

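RNA of 35 mouse wound biopsies was sequenced. The deposited tables hold raw counts per RefSeq gene, which the authors made with HISAT2 against mm9 and exon counting in SeqMonk; whether this covers the cilengitide libraries is not stated. One table held 23 libraries (29082 rows) and the other 12 (22831 rows). Rows naming no gene (30 and 1) held at most 0.0694% of a library and were dropped, and the row with the largest total was kept per symbol. Each comparison was fitted within 1 table, on its own groups, with edgeR 4.0.16 (TMM scaling, low counts removed by filterByExpr at its minimum of 10, quasi-likelihood test with robust dispersion, Benjamini-Hochberg over all genes), and tested on simulated counts first. DESeq2 1.42.0, other filters and scalings, covariates, library sets and left-out wounds were alternatives. Groups came from the sample titles; the treatment field disagrees for the fibroblast-injected wounds of day 14 and the Col5a1CKO wounds of day 19. The members and gene lists were chosen with earlier results of these data known. Named pathway genes are called genes of those lists, by size of change. Promoters came from RefSeq tables. No libraries of a group were alike enough to be 1 library deposited more than once (lowest chi-square per degree of freedom 31.3).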

Additional observations from a re-analysis of the deposited data

Results flagged for a closer look

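Egfr in Col5a1CKO day 14 replicate f, at 29.5 CPM, stood far below the other 6 wounds of its group (71.6 to 102 CPM). Its gap to the nearest wound was 0.710 of the group's range, above the critical value of 0.568 for 7 samples. It was the only 1 of 45 gene and group pairs checked, and chance gives about 1 in 20.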

How the results depend on the processing

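Of 1836 alternative values of single members, 1732 kept their side of the threshold with no called reversal, 58 gained a call, 41 lost one and 5 were called in the opposite direction. Counting values that were not called, 117 had another sign. Erbb2 in fibroblast-injected against WT wounds reversed to 1.61 with the epidermal covariate, 1.71 with the replicate block and 1.56 in the same wounds without the block (a fit chosen after seeing the data). Erbb2 in WT wounds between days reversed to 1.92 with the covariate and 1.90 in the wounds of the block fit without the block. The cause was not tested. The sample titles do not say whether replicate letters pair the samples. The mean correlation of same-letter deviations was 0.174 at day 14 and -0.371 at day 19, which cannot settle it with so few letters. No paired analysis was possible in the cilengitide experiment because its numbers were given in accession order.

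The counts of called members below show how calls depended on the processing. The share of all genes called differed between fits and is given above for only some of them. The counts are therefore not a result about the members. For Col5a1CKO against WT at day 14, 1 member was called with DESeq2, with all groups in one fit, with the replicate block, with the library set as covariate and within the lower set. At day 19 DESeq2 called 3. For injected against Col5a1CKO wounds, the block called 3 and the same wounds without it 4. For injected against WT wounds, 2 were called with DESeq2, 1 with its size factors, 5 with the epidermal covariate, 3 with the block and without it, and 4 within the upper set. For WT between days, the covariate and the wounds of the block fit without it gave 4 and the upper set 5. For Col5a1CKO between days, the block and the same wounds without it gave 2. With the covariate, which did not overlap between the groups, 0 were called in all 3 comparisons of the cilengitide experiment. For cilengitide against WT, 5 were called with DESeq2 and with no fold threshold, and 1 with all genes kept or all groups in one fit. Leaving out single wounds gave 0 to 3 members at day 14, 0 to 1 at day 19, 0 to 2 for injected against WT and for WT between days, 4 to 5, 2 to 5 and 0 to 5 in the cilengitide experiment, and 0 elsewhere. Over all genes, day 14 had 1190 calls with edgeR and 2095 with DESeq2, and day 19 had 3 and 1397.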
